A study of Homo sapiens with 6 samples.

Results

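The miR-26 and miR-101 miRNAs were examined in A549 cells, a human lung adenocarcinoma line, in which METTL1 had been knocked down. They are 7 of the 2588 mature miRNAs listed in the count tables and were chosen by name, as the listed arms of the miR-26a, miR-26b and miR-101 hairpins, because the 2 families are known to target EZH2. METTL1 is a methyltransferase that places N7-methylguanosine (m7G) in RNA. The 3 total RNA libraries (the input) and the 3 libraries of heat-denatured RNA pulled down by an antibody against m7G (m7G-RIP) all came from cells with an inducible METTL1 knockdown, treated with doxycycline at 200 ng/ml for 5 days. The knockdown is an shRNA under a tetracycline-inducible promoter, and the labels do not say which shRNA, or whether replicates were separate cultures, so p-values measure the spread between these libraries. The culture text of the m7G-RIP libraries describes Caco-2 medium, while their titles and cell line labels say A549, and the tables hold no mRNA with which either the line or the level of METTL1 could be checked. All libraries carried the knockdown and none here was made with IgG, so the values compare immunoprecipitated with total RNA and do not measure the effect of METTL1. No batch was labelled, so differences in library making between the groups cannot be told apart from the immunoprecipitation.

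A miRNA is cut from a hairpin transcript, first by DROSHA in the nucleus and then by DICER in the cytoplasm. Of the resulting duplex, the guide arm is loaded into an Argonaute protein and pairs through its seed (bases 2 to 8) with target mRNAs, while the passenger arm is mostly degraded. EZH2 is the catalytic subunit of Polycomb repressive complex 2, which methylates histone H3 and silences genes, and it is often raised in tumours, including lung carcinoma. miR-101 and miR-26a are textbook repressors of EZH2 and are described as tumour suppressors.

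The mature sequences are shown because the arms differed in recovery while several share a seed. They are given 5′ to 3′ from RefSeq (GRCh38.p14), which held all 7, with the seed in capitals.
hsa-miR-26a-5p: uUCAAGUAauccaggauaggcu
hsa-miR-26b-5p: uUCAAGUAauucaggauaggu
hsa-miR-101-3p: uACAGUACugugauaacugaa
hsa-miR-26a-1-3p: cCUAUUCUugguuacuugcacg
hsa-miR-26a-2-3p: cCUAUUCUugauuacuuguuuc
hsa-miR-26b-3p: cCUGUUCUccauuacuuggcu
hsa-miR-101-5p: cAGUUAUCacagugcugaugcu

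The 5p arms of miR-26a and miR-26b have the same seed and differ at 2 of the 21 positions they share, C11U and C21U, counted from 1 at the 5′ end with the base of miR-26a-5p first. The only other listed miRNAs with that seed, among those with a RefSeq sequence, were miR-4465, with 0 counts in every library, and miR-1297, with 1 count in all libraries together. The seed of miR-101-3p was shared with no other listed miRNA that had a sequence. The 3p arms of the miR-26a hairpins share a seed with each other and differ at 5 positions (G11A, C19U, A20U, C21U and G22C), so that they tell the MIR26A1 hairpin from MIR26A2.

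The hairpins are shown to place the arms, with the arms of the list in capitals. Per GENCODE release 44 (GRCh38), each lies in an intron of a protein-coding gene on the same strand. MIR26A1 is in CTDSPL (chr3:37969404-37969480, plus strand), MIR26A2 in CTDSP2 (chr12:57824609-57824692, minus strand) and MIR26B in CTDSP1 (chr2:218402646-218402722, plus strand). These hosts encode a family of small phosphatases of the C-terminal domain of RNA polymerase II. MIR101-1 is in JAK1, a cytokine receptor kinase (chr1:65058434-65058508, minus strand), and MIR101-2 is in RCL1, a factor of ribosomal RNA processing (chr9:4850297-4850375, plus strand).
MIR26A1: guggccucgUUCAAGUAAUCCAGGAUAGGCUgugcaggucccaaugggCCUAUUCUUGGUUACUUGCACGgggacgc
MIR26A2: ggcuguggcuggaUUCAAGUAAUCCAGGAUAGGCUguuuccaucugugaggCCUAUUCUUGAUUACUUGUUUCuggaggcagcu
MIR26B: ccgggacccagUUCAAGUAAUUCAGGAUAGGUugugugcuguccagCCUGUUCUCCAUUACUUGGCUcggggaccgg
MIR101-1: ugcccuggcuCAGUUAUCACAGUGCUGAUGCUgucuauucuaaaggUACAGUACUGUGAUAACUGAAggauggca
MIR101-2: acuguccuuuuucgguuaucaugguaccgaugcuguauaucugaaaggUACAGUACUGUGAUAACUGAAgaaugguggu

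miR-26a-5p and miR-101-3p are each encoded by 2 hairpins, and the files give 1 count for each without dividing it between the loci. The methods state that the aligner STAR kept reads with up to 10 alignments, which includes reads that fit both loci. How featureCounts then counted such reads is not given in the sources used here. That choice could move their levels, and their shares, against miR-26b-5p, which has a single hairpin. miR-101-5p comes from MIR101-1 alone, and the 5p arm of MIR101-2 is not analysed here.

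Seed matches were looked for in the EZH2 3′ UTR, the region these miRNAs are known to act on. The 3′ UTR of the canonical transcript was 263 bases long (GENCODE release 44, minus strand of chromosome 7). It held 2 matches to bases 2 to 8 of miR-101-3p (GTACTGT) and 1 match to those of miR-26a-5p and miR-26b-5p (TACTTGA). Of the 16173 canonical 3′ UTRs at least that long, 1.38% held GTACTGT and 1.94% held TACTTGA in their first 263 bases. None of the 3p arms of miR-26, nor miR-101-5p, had a match in this window. The matches are printed in capitals in the sense of the mRNA, with neighbouring bases, at chr7:148807580-148807601 and chr7:148807525-148807546 for miR-101-3p and chr7:148807389-148807410 for the miR-26 5p arms.
miR-101-3p, bases 59 to 65 of the 3′ UTR: ttcaggaacctcgaGTACTGTg
miR-101-3p, bases 114 to 120: tctgaatttgcaaaGTACTGTa
miR-26a-5p and miR-26b-5p, bases 250 to 256: ctttgaataaagaaTACTTGAa

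Total RNA libraries held from 9155690 to 10753443 counts and m7G-RIP libraries from 2649238 to 3106556. Levels are given as CPM, which are counts divided by sequencing depth, scaled by the trimmed mean of M-values (TMM), which sets the bulk of miRNAs equal between libraries, so each ratio is relative to the other miRNAs. In the fit across all 620 miRNAs that passed the filter on low counts, 29.2% were depleted in m7G-RIP and 23.5% enriched at an adjusted p under 0.05, and the groups did not overlap for 66.0%. Of all calls 44.6% were enrichments, against 60.5% when library size alone was used for scaling, which raised the median log2 ratio by 0.55.

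Of the 7 miRNAs, 5 passed the filter. 1 of these, miR-101-3p, was depleted, and 0 were enriched by edgeR's test, although miR-26a-5p and miR-26a-2-3p had an unadjusted p under 0.05, as had 368 of the 620 miRNAs tested, and passed the adjusted threshold of DESeq2 and of limma-voom. The others, miR-26a-5p, miR-26b-5p, miR-26a-2-3p and miR-26b-3p, did not pass the threshold. The groups did not overlap for 3 of the 5, miR-101-3p, miR-26b-3p and miR-26a-2-3p, beside the 66.0% of all tested. The median log2 ratio of the 5 was -0.055 against -0.074 for all miRNAs tested, and this median covers a spread from -4.33 to 2.05. miR-26a-1-3p and miR-101-5p had too few counts to be tested. miR-26a-2-3p reached the filter's level in all 3 m7G-RIP libraries and in only 1 total RNA library, so it was tested only through the group in which it was high, and neither its ratio nor the counts and the median above that include it support a difference.

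**Figure D1:**
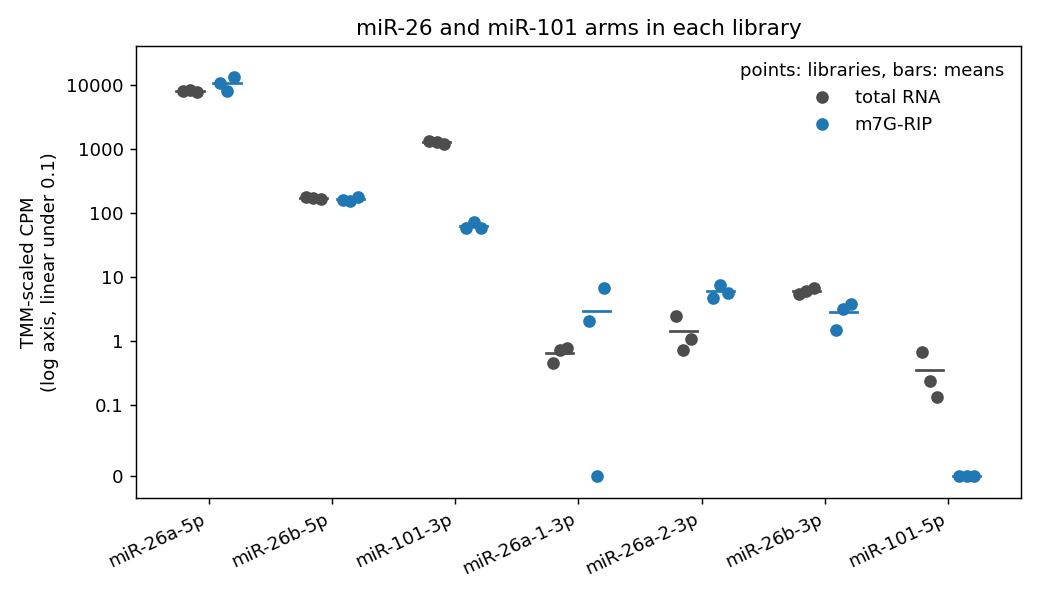
TMM-scaled CPM (log axis, linear under 0.1) of the 7 miRNAs in the 3 total RNA and 3 m7G-RIP libraries, with points for libraries and bars for means. miR-101-3p sits between 1183 and 1319 CPM in total RNA and between 57.1 and 71.6 CPM in m7G-RIP, while the groups of miR-26a-5p and miR-26b-5p overlap.

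miR-101-3p, the guide arm of both MIR101 hairpins, was read 11685, 10572 and 8995 times in total RNA replicates 1 to 3 and 194, 228 and 219 times in m7G-RIP. As normalised levels, these were 1319, 1257 and 1183 CPM in total RNA and 57.1, 71.6 and 58.6 CPM in m7G-RIP. Every m7G-RIP library lay far below every total RNA library. The mean level went from 1253 ± 68.0 to 62.4 ± 7.94 CPM (SD, n = 3), or 20.1-fold lower by the fit. On the log2 scale the difference was -4.33 (SE 0.15, edgeR adjusted p 5.58e-08). By log2 ratio it ranked 593 of the 620 miRNAs tested, counted from the most enriched. By level, miR-101-3p went from rank 54 of all miRNAs in total RNA to rank 180 in m7G-RIP. It was depleted in 14 of 14 other settings, with log2 ratios from -4.61 to -3.78.

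miR-26a-5p, the guide arm of both MIR26A hairpins, was the most abundant of the 7. It was read 70449, 69092 and 57296 times in total RNA, or 7950, 8212 and 7533 CPM. In m7G-RIP it was read 35354, 25612 and 48769 times, or 10414, 8040 and 13054 CPM. m7G-RIP replicates 1 and 3 lay above all total RNA libraries and replicate 2 lay among them, so the groups overlapped. The means were 7899 ± 342 and 10503 ± 2508 CPM (SD, n = 3). The log2 ratio of 0.41 (SE 0.16) was not past the threshold (edgeR adjusted p 0.0582). Without m7G-RIP replicate 3 it was 0.019 (edgeR adjusted p 0.930), and without m7G-RIP replicate 1 it was 0.23 (edgeR adjusted p 0.416). Without m7G-RIP replicate 2 it was 0.41 and the call was gained (edgeR adjusted p 0.0265). These fits were filtered and scaled anew, which moved other miRNAs as well. The median shift over the miRNAs of the reported fit was -0.14, -0.18 and -0.23 without m7G-RIP replicates 1, 2 and 3. Scaling mattered as well, and the call was also gained with library size alone (log2 ratio 0.97, edgeR adjusted p 0.00147). Over 14 alternatives its log2 ratio was above 0, and it was past the threshold in 5. It ranked 16 by level in total RNA and 13 in m7G-RIP.

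miR-26b-5p, with the same seed as miR-26a-5p, was far scarcer. It was read 1537, 1443 and 1226 times in total RNA and 542, 493 and 646 times in m7G-RIP. In CPM, total RNA held 173, 172 and 161 and m7G-RIP 160, 155 and 173, and the groups overlapped. The means were 169 ± 6.58 and 162 ± 9.39 CPM (SD, n = 3). The log2 ratio was -0.055 (SE 0.15, edgeR adjusted p 0.773), rank 310 of 620. It changed direction to 0.50 with library size alone (edgeR adjusted p 0.0152), a shift of about the size that this scaling gave to the median of all miRNAs.

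**Figure D2:**
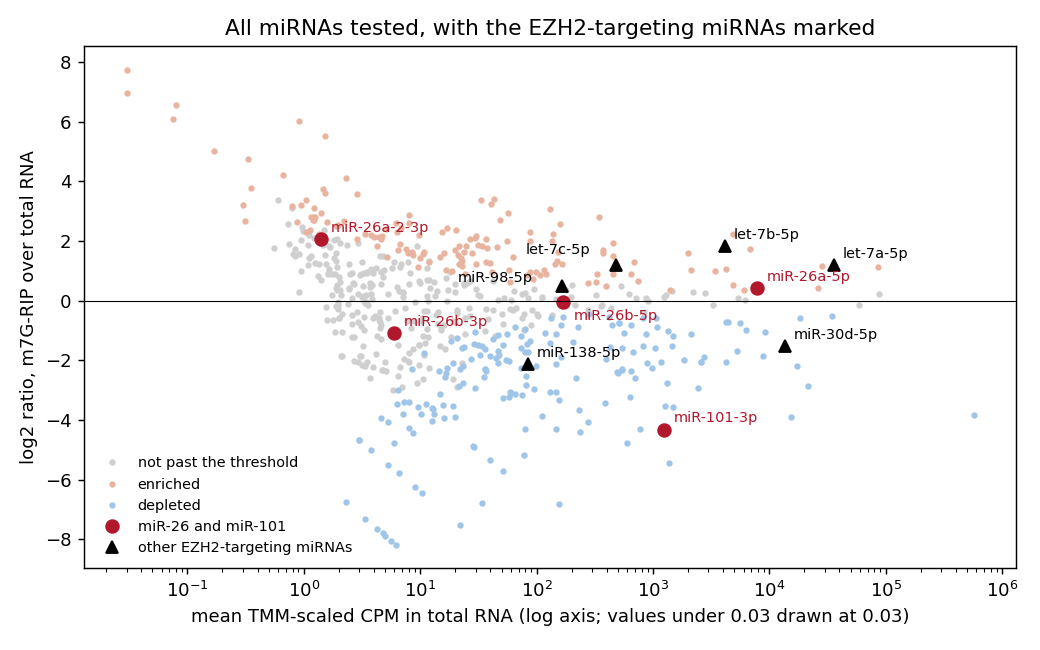
Log2 ratio of m7G-RIP over total RNA against mean TMM-scaled CPM in total RNA (log axis) for the 620 miRNAs tested, coloured by call, with miR-26 and miR-101 as circles and the other EZH2-targeting miRNAs as triangles. miR-101-3p lies at -4.33 among abundant miRNAs, whereas miR-26a-5p and miR-26b-5p lie at 0.41 and -0.055.

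The guide arms were compared with each other within each library, where the ratio of 2 counts needs no scaling. Of 7 pairs of miRNAs compared this way, including arms of the miR-26 hairpins, 5 had groups that did not overlap. Each of these had p = 0.1 by a two-sided exact permutation test (0.14 adjusted over the 7). An unadjusted p of 3 libraries against 3 cannot go below 0.1. Among single miRNAs tested, 66.0% did not overlap, and no share was computed for pairs of other miRNAs. The pairs share miRNAs, and 1 of the 5 includes miR-26a-2-3p, so this count is a description.

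For miR-26a-5p over miR-101-3p the log2 count ratios were 2.59, 2.71 and 2.67 in total RNA and 7.51, 6.81 and 7.80 in m7G-RIP. The mean was 4.71 higher (SE 0.29), and the groups did not overlap (exact permutation p = 0.1). In counts of the 2 miRNAs together, miR-101-3p took from 13.3% to 14.2% in total RNA and from 0.447% to 0.882% in m7G-RIP.

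For miR-26b-5p over miR-101-3p the log2 count ratios were -2.93, -2.87 and -2.87 in total RNA and 1.48, 1.11 and 1.56 in m7G-RIP. The order of the pair thus turned over. miR-101-3p had from 88.0% to 88.4% of their joint counts in total RNA and from 25.3% to 31.6% in m7G-RIP, a mean difference in log2 ratio of 4.27 (SE 0.14, exact permutation p = 0.1).

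For miR-26a-5p over miR-26b-5p the log2 count ratios were 5.52, 5.58 and 5.55 in total RNA and 6.03, 5.70 and 6.24 in m7G-RIP. The groups did not overlap, but the lowest m7G-RIP value lay just above the total RNA values. The mean difference was 0.44 (SE 0.16, exact permutation p = 0.1), much smaller than the shift of either miRNA against miR-101-3p. miR-26b-5p made up from 2.05% to 2.14% of the counts of the pair in total RNA and from 1.31% to 1.89% in m7G-RIP.

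**Figure D3:**
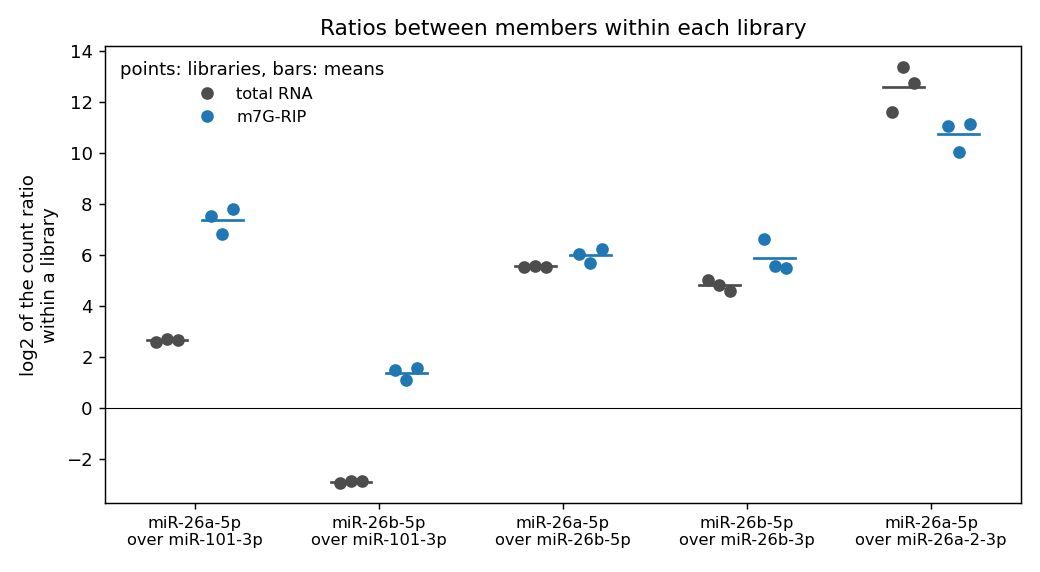
Log2 of the count ratio of 2 miRNAs within each of the 3 total RNA and 3 m7G-RIP libraries, with points for libraries and bars for means. Both ratios over miR-101-3p are higher in m7G-RIP, by 4.71 and 4.27, while miR-26a-5p over miR-26b-5p is higher by 0.44.

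The other arms of the hairpins were scarce. miR-26b-3p, the passenger arm of MIR26B, was read 47, 50 and 51 times in total RNA (5.30, 5.94 and 6.71 CPM) and 5, 10 and 14 times in m7G-RIP (1.47, 3.14 and 3.75 CPM). All m7G-RIP libraries lay below all total RNA libraries, yet the log2 ratio of -1.09 (SE 0.71) was not past the threshold (edgeR adjusted p 0.224). As a share of the counts of both arms, the 3p arm took from 2.97% to 3.99% in total RNA and from 0.914% to 2.12% in m7G-RIP. The log2 ratio of miR-26b-5p over miR-26b-3p was 1.08 higher in m7G-RIP (SE 0.39, exact permutation p = 0.1), and 0.71 higher without m7G-RIP replicate 1.

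miR-26a-2-3p, the passenger arm of MIR26A2, was read 22, 6 and 8 times in total RNA (2.48, 0.713 and 1.05 CPM) and 16, 24 and 21 times in m7G-RIP (4.71, 7.53 and 5.62 CPM). Here all m7G-RIP libraries lay above all total RNA libraries. The log2 ratio was 2.05 (SE 0.80) and missed the threshold (edgeR adjusted p 0.0571). As it passed the filter only through m7G-RIP, where it was high, these values are a description. The log2 ratio of miR-26a-5p over miR-26a-2-3p was 1.82 lower in m7G-RIP, at 12.57 ± 0.891 in total RNA and 10.75 ± 0.623 in m7G-RIP (SD, n = 3, exact permutation p = 0.1). The 5p arm is also encoded by MIR26A1, so this is not the arm ratio of a single hairpin.

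miR-26a-1-3p, the passenger arm of MIR26A1, was read 4, 6 and 6 times in total RNA and 7, 0 and 25 times in m7G-RIP. The m7G-RIP libraries differed widely from each other. In replicate 2, where no count was seen, up to 3 counts or 0.942 CPM are allowed, which is above the 0.451 to 0.789 CPM of total RNA, while replicate 3 reached 6.69 CPM. Its ratios to miR-26a-5p and to miR-26a-2-3p overlapped between the groups (exact permutation p = 0.8 and 0.7).

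miR-101-5p, the passenger arm of MIR101-1, was read 6, 2 and 1 times in total RNA and 0 times in each m7G-RIP library. In a single library the count of 0 allows from 0.803 to 0.942 CPM, above the 0.131 to 0.677 CPM of total RNA. No m7G-RIP library taken alone could therefore show a lower level, and no fold change is given. In the fit with no filter, miR-101-5p was not past the threshold (edgeR adjusted p 0.306).

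The 7 miRNAs together took 0.779%, 0.791% and 0.738% of all miRNA counts in total RNA and 1.36%, 0.954% and 1.60% in m7G-RIP. The m7G-RIP libraries were higher (exact permutation p = 0.1), and miR-26a-5p made up most of the sum in each library, from 0.626% to 0.673% of all counts in total RNA and from 0.927% to 1.57% in m7G-RIP. A miRNA of unchanged TMM level takes a larger share of m7G-RIP counts, since the TMM factors were from 0.820 to 0.831 in total RNA and from 1.15 to 1.28 in m7G-RIP.

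The G content of the mature miRNAs was set beside the ratios because m7G is a modified G. miR-26a-5p and miR-26b-5p hold 5 G each, at positions 6, 14, 15, 19 and 20, with 2 GG pairs. miR-101-3p holds 4 G, at positions 5, 10, 12 and 19, none next to another. Of the other arms, miR-26a-2-3p holds 2 G and miR-26b-3p holds 3. Across the 557 tested miRNAs with a RefSeq sequence, 89.8% of those tested, the log2 ratio was correlated with the percentage of G (Pearson r = 0.410, Spearman rho = 0.436). The rise was not steady, as the median log2 ratio was 0.014 at 1 G and 0.24 at 2 G but -1.09 at 3 G. This is a description across miRNAs that share the same 6 libraries. With percentages of G from 9.09% to 23.8%, all 7 were below the median of 27.8%.

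Tested miRNAs with 4 G numbered 64 and had a median log2 ratio of -1.09, with 32 depleted and 6 enriched. miR-101-3p, at -4.33, lay well below that median. Those with 5 G numbered 82 and had a median of -0.72, and miR-26a-5p (0.41) and miR-26b-5p (-0.055) lay above it. The dinucleotide GG was present in 74.9% of the 557 miRNAs, searched on the miRNA strand only. Median log2 ratios were 0.15 with GG and -0.58 without it.

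**Figure D4:**
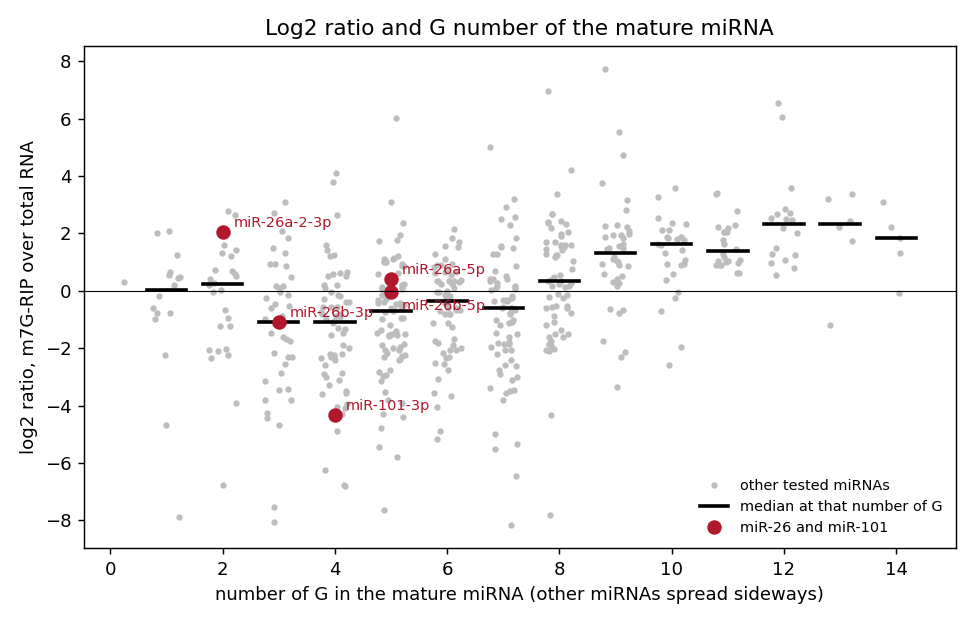
Log2 ratio of m7G-RIP over total RNA against the number of G in the mature miRNA for 557 tested miRNAs, with black bars for the median at each number of G held by at least 5 miRNAs. miR-101-3p lies below the median for 4 G (-1.09) and miR-26a-5p and miR-26b-5p above that for 5 G (-0.72).

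Other miRNAs known to target EZH2 did not share a direction. Of 12 on a list drawn up from general knowledge, 6 passed the filter, of which 4 were enriched and 2 depleted, beside the 23.5% and 29.2% of all miRNAs tested. All 4 enriched ones were of the let-7 family, so these counts depend on which let-7 members were listed. miR-138-5p went from 87.5, 92.5 and 71.7 CPM in total RNA to 10.3, 32.0 and 15.3 CPM in m7G-RIP. Its log2 ratio was -2.13 (SE 0.39) with an adjusted p of 0.00166 by edgeR. miR-30d-5p went from 13525 ± 56.1 to 4725 ± 411 CPM (SD, n = 3), which is -1.52 on the log2 scale (edgeR adjusted p 2.37e-06). Both were depleted by less than miR-101-3p, and neither overlapped between the groups.

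The enriched miRNAs of that list were the let-7 members let-7b-5p, let-7a-5p and let-7c-5p, with log2 ratios of 1.83, 1.19 and 1.19, and miR-98-5p, of the same family, with 0.50 (edgeR adjusted p 0.0311). The let-7 5p arms left off the list were spread more widely. They were let-7i-5p (-0.13), let-7g-5p (0.031), let-7f-5p (0.42), let-7d-5p (0.49) and let-7e-5p (2.24). The call of miR-98-5p was lost without any 1 of the m7G-RIP libraries (0.36, 0.35 and 0.19 without replicates 1, 2 and 3) without total RNA replicate 1 (0.39) or 2 (0.47), and with no filter (0.23). miR-137, a miRNA of neurons, was not tested. It was read 47, 30 and 12 times in total RNA (5.30, 3.57 and 1.58 CPM) and 0 times in every m7G-RIP library. For miR-137 the counts of 0 allow from 0.803 to 0.942 CPM, below each of its total RNA values. miR-214-3p, miR-124-3p, miR-217, miR-506-3p and miR-144-3p had at most 18 counts in any library.

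The miRNAs whose levels were most like those of each guide arm were found by the root mean square distance of log2 CPM over the 6 libraries. Nearest to miR-101-3p were miR-148a-3p (distance 0.55) and miR-181a-5p (0.73), which fell from 1259 to 108 CPM and from 1476 to 124 CPM on average. Their log2 ratios were -3.55 and -3.57. The distance used both groups of libraries, so the ratios of miRNAs chosen this way follow from the choice and are given without a test. Nearest to miR-26a-5p were miR-222-3p (0.45), with mean CPM of 6097 in the input and 7805 in m7G-RIP, and let-7g-5p (0.65), with 6163 and 6299. Their log2 ratios were 0.36 (SE 0.10) and 0.031 (SE 0.12). Nearest to miR-26b-5p were miR-30e-3p (0.20) and miR-146b-5p (0.25), with log2 ratios of 0.046 and -0.18.

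**Figure D5:**
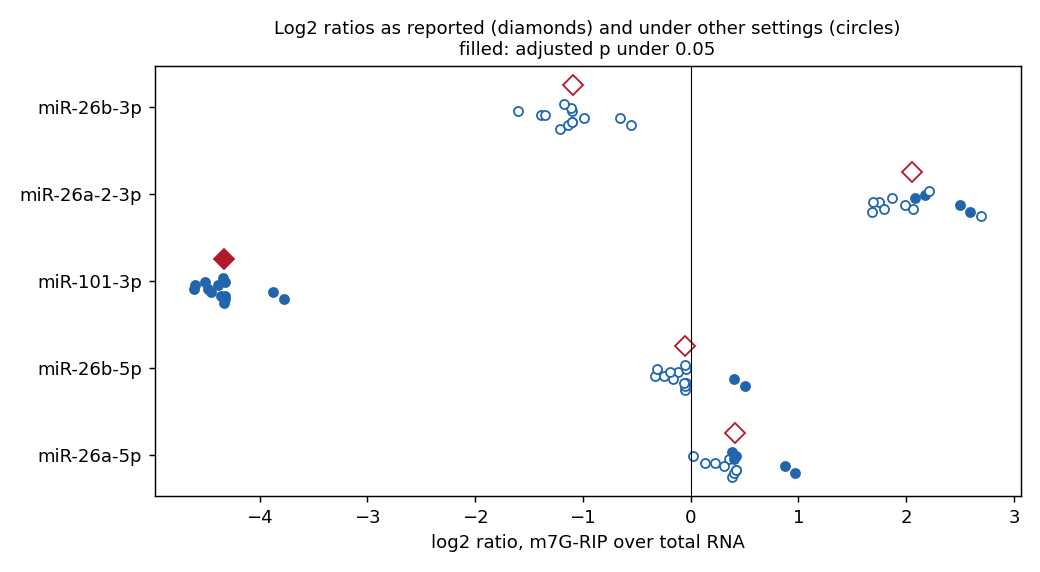
Log2 ratio of m7G-RIP over total RNA for the 5 tested miRNAs as reported (diamonds) and under other settings (circles), filled where the adjusted p is under 0.05. miR-101-3p is filled throughout, between -4.61 and -3.78, whereas miR-26a-5p runs from 0.019 to 0.97 and miR-26b-5p from -0.33 to 0.50.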

How the data were processed

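Small RNA libraries (NEBNext kit) of total RNA and of m7G-RIP were compared, grouped by sample title. The deposited values are raw read counts for each mature miRNA. Reads were trimmed with Trimmomatic, mapped to GRCh38 and counted with featureCounts on miRBase. The methods name STAR as the aligner and the submitters' processing notes name Bowtie2. The STAR settings in the methods kept reads with up to 10 alignments. How featureCounts then counted reads of miRNAs with several loci is not given in the sources used here.

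The comparison was fitted in R 4.3.3 by edgeR 4.0.16 (TMM, filterByExpr, robust quasi-likelihood F test, no replicate block), with Benjamini-Hochberg adjustment over all 620 miRNAs tested and a threshold of 0.05. SE is the log2 ratio over the root of F. Log2 CPM used a prior count of 2, and pair ratios added 0.5 to each count. The planned ratio of miR-101-3p over miR-101-5p was not computed, as the latter had 0 counts in m7G-RIP. Spread within groups exceeded counting noise (chi-square per degree of freedom from 22.2 to 112). Counting floors of 3 counts per library cover counting error only, since reads carry no molecular identifiers. Sequences came from RefSeq, matched by name for 2281 of 2588 miRNAs, and 3′ UTRs from GENCODE 44. The code was tested on simulated counts. Members and lists were chosen with earlier results of these data known. Named were all members, 12 other EZH2-targeting miRNAs, sharers of a seed, and the 2 nearest miRNAs by level of each member with at least 10 counts in every library. Alternatives covered scaling, filtering, DESeq2 1.42.0, limma-voom (limma 3.58.1), a replicate block and the removal of single libraries.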

Additional observations from a re-analysis of the deposited data

How the results depend on the processing

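miR-101-3p was depleted in all 14 alternatives and was the only member depleted in each of them. miR-26a-5p passed the threshold with library size alone (0.97), library size without the 10 most abundant miRNAs (0.87), the DESeq2 Wald test (0.42) and limma-voom (0.39). miR-26a-2-3p, which was tested only through m7G-RIP, where it was high, did so in the same settings, with 2.59, 2.50, 2.08 and 2.18. miR-26b-5p changed direction to 0.50 with library size alone and to 0.41 without the 10 most abundant miRNAs, settings that raise the median log2 ratio by 0.55 and 0.45. With no filter that median fell by 0.28, and miR-26a-5p had 0.14. The filter of 10 counts in each library left miR-26a-2-3p and miR-26b-3p untested, and the ratio of the miR-101 arms was not computed. With no filter, neither miR-26a-1-3p nor miR-101-5p passed the threshold (edgeR adjusted p 0.393 and 0.306). miR-26b-3p was past the threshold in no alternative (0 of 13).

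Across fits without 1 library, the log2 ratio ran from 0.019 to 0.42 for miR-26a-5p, from -0.31 to -0.056 for miR-26b-5p, from -4.60 to -4.32 for miR-101-3p, from 1.68 to 2.70 for miR-26a-2-3p and from -1.60 to -0.99 for miR-26b-3p. Each of these fits was filtered and scaled anew, with a median shift over the miRNAs of the reported fit from -0.23 to -0.030, which the ranges include. The difference of miR-26a-5p over miR-26a-1-3p ran from -1.92 to 0.45, turning without m7G-RIP replicate 3, and that of miR-26a-1-3p over miR-26a-2-3p (-1.27 with all libraries) from -2.47 to 0.46, turning without m7G-RIP replicate 2. The difference in the members' share of counts was 0.536 percentage points and ran from 0.389 to 0.712, and was 2.03 points without the 10 most abundant miRNAs in the denominator. The numbers of enriched and depleted miRNAs over all alternatives ran from 116 to 216 and from 133 to 245.

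The paper's protocol sets aside part of the RNA as input before the pulldown, so libraries with the same replicate number may be pairs. They were not treated as pairs in the reported fit. Their deviations from group means correlated at -0.0433, -0.101 and 0.0641. These correlations include the counting noise of scarce miRNAs, so they cannot show that the libraries were unpaired. With a replicate block, miR-101-3p had a log2 ratio of -4.33 and miR-26a-5p of 0.38, 122 miRNAs were enriched and 175 depleted, and no member's call changed. Paired exact sign-flip tests cannot go under 0.25. Depth limits the 3p arms of miR-26 and miR-101-5p, which had from 0 to 51 counts a library.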
